A study of Mus musculus with 9 samples.

Results

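The mouse genes of the semaphorins, plexins and neuropilins were followed in the poly(A) RNA of cultures labelled as RAW264.7, a mouse line transformed by a leukaemia virus and grown as a model of macrophages. The members were chosen by gene symbol, and 31 of the 56289 genes in the table belonged to the family, namely 20 semaphorins, 9 plexins and 2 neuropilins. The family was selected on account of the TNF-α against Con results of these same libraries, so the values of the members in that comparison are given below as a description without p-values. There were 3 groups of 3 libraries each, described by the study as biological replicates. Con cultures received no cytokine, TNF-α cultures received recombinant human TNF-α at 20 ng/ml, and TNF-α+WBT cultures received the same TNF-α together with 1.0 μg/ml of an extract of Wang Bi tablet (WBT), a herbal medicine given in rheumatoid arthritis. The treatments lasted 24 h, and the sample labels write the third group as WBP. All groups were grown in the same medium, and the labels name no allele or transgene.

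Semaphorins are guidance proteins with a common sema domain. Those of class 3 are secreted, those of classes 4 to 6 span the membrane, and Sema7a is held at the surface by a lipid anchor. Plexins are their large receptors, whose intracellular part acts on Ras-like GTPases and through them on the cytoskeleton and on integrin adhesion. Most class 3 semaphorins reach plexins only through the co-receptors neuropilin-1 and neuropilin-2, which also bind members of the VEGF family. Sema3e is the known exception that binds plexin-D1 directly. The family is best known from axon growth, blood vessels, glia and immune cells.

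Expression was measured as FPKM, fragments per kilobase of transcript adjusted for library depth, so levels of different genes can be set side by side. The estimated depth was 16840000 to 26055000 fragments per library. The macrophage label was checked first. Of 16 macrophage markers, Cd14 alone was above 1 FPKM in all 9 libraries, and Ptprc, Spi1, Itgam, Adgre1, Tyrobp, Cybb, Ctss and C1qa were listed at 0 in every library. In the same libraries 11 of 14 fibroblast markers and 8 of 12 Schwann cell markers were above 1 FPKM throughout, and the 12 genes used by every cell all were. The data thus went against the label, and the samples are called cultures here. The summed level of the macrophage list was 6.05 to 7.44 FPKM in Con, 7.05 to 8.07 under TNF-α and 7.24 to 8.81 under TNF-α+WBT.

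Of the 31 genes, 24 had a mean of at least 1 FPKM in some group, and in these the single libraries ran from 1.26 FPKM to 156 FPKM. Plxnb2, the receptor of Sema4c and a regulator of cell contacts, was the most abundant member at 146 ± 1.73 FPKM in Con, 152 ± 3.76 under TNF-α and 147 ± 1.87 under TNF-α+WBT (mean ± SD, n = 3 libraries in each group, as for all means below). Nrp2, the neuropilin that binds Sema3f, came second at 81.5 ± 3.24 FPKM in Con. Sema4c and Sema3f followed at 55.3 ± 11.7 and 44.9 ± 2.34 FPKM, and their libraries overlapped. The next group of 8 genes, from Plxna1 at 21.9 ± 1.24 FPKM down to Plxnd1 at 15.3 ± 0.881 FPKM, formed a run in which each gene overlapped the next in its libraries. In all, 20 of the 30 steps between neighbours in the Con order overlapped, so much of that order is not resolved. With TNF-α, Sema4f moved from rank 7 to rank 15 and Plxnb3 from rank 13 to rank 18, while Plxnd1 moved from rank 12 to rank 5.

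**Figure D1:**
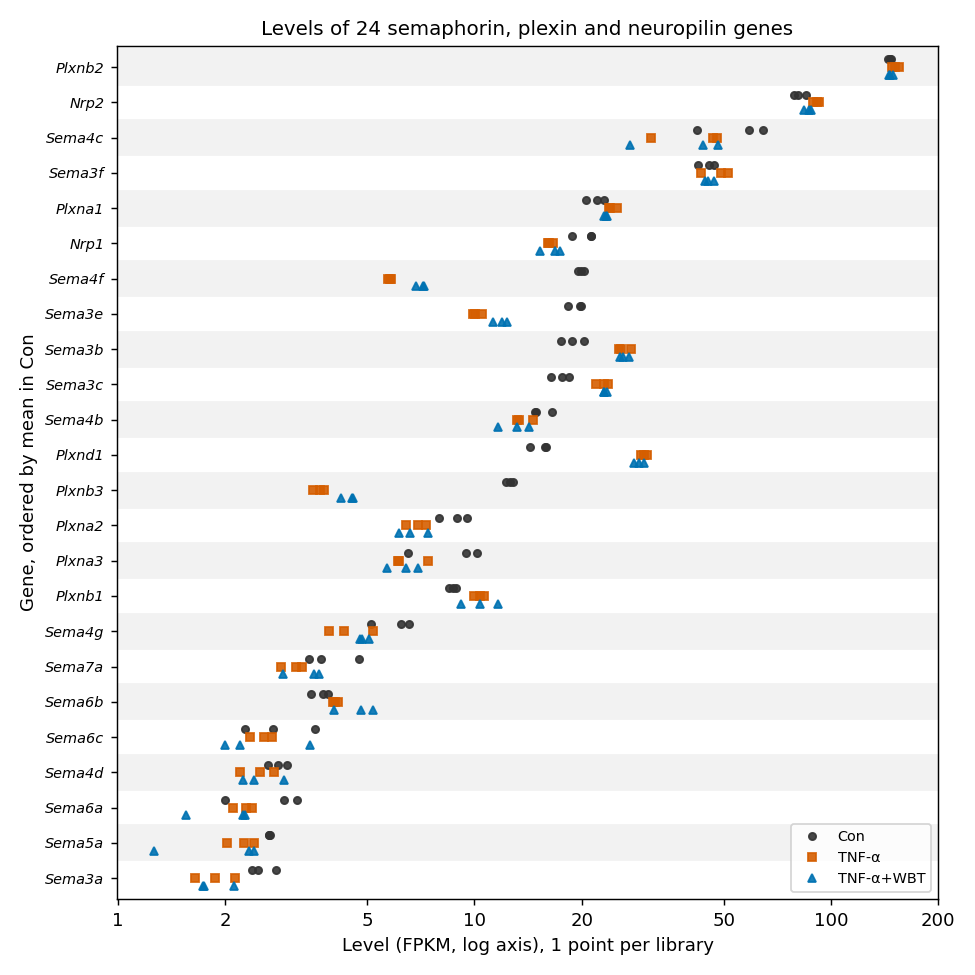
Level of the 24 family genes whose mean reached 1 FPKM in some group (horizontal log axis, FPKM), with 1 point for each of 3 Con, 3 TNF-α and 3 TNF-α+WBT libraries. Plxnb2 is highest near 150 FPKM. Sema4f, Plxnb3 and Sema3e have their Con points well to the right of all others, and Plxnd1 has its Con points well to the left. By smaller steps, the Con points also lie to the right for Nrp1, Sema3a, Plxna2, Sema4b and Sema5a. They lie to the left by smaller steps for Sema3b, Sema3c, Plxnb1 and Sema6b.

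The other 7 genes stayed low, with no library above 1.11 FPKM. Sema3d, Sema6d and Plxna4 had group means of 0.671 to 0.792, 0.744 to 0.920 and 0.746 to 0.830 FPKM. Sema4a had means of 0.209 to 0.331 FPKM, and Plxnc1, the receptor of Sema7a, had means of 0.0690 to 0.145 FPKM. Sema3g was above 0 in 8 libraries, with 0.0998, 0.107 and 0.0436 FPKM in Con, 0.0105, 0.0295 and 0.0350 FPKM with TNF-α and 0.0241, 0 and 0.0654 FPKM with TNF-α+WBT. At most 11.8 estimated fragments lay behind each of these values, and the ratio of its TNF-α to its Con mean was 0.299, against a fitted log2 fold change of -0.54 (SE 0.23) on the log2(FPKM + 0.1) scale. Sema5b was above 0 in 2 libraries. It was the 1 member that did not pass the filter of a value above 0 in at least 3 libraries, so 30 members were tested. A gene that passed this filter through its high group alone had to differ. No member did so, since each tested member was above 0 in at least 8 of the 9 libraries.

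4 promoters are shown because their genes had the largest log2 fold changes among the 24 genes in the TNF-α against Con comparison, 3 of them lower and 1 higher. Each is the 250 bases before the start site in RefSeq on build GRCm38.p6, written 5′ to 3′ on the strand of the gene, with CpG dinucleotides in capitals. Sema4f lies on the minus strand with its window at chr6:82939770-82940019, Plxnb3 on the plus strand at chrX:73756853-73757102, Sema3e on the plus strand at chr5:14025026-14025275 and Plxnd1 on the minus strand at chr6:115995006-115995255.
Sema4f: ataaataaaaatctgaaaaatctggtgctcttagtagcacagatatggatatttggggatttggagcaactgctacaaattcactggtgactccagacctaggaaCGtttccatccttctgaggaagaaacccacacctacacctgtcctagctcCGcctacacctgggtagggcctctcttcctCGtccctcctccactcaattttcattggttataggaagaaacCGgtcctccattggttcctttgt
Plxnb3: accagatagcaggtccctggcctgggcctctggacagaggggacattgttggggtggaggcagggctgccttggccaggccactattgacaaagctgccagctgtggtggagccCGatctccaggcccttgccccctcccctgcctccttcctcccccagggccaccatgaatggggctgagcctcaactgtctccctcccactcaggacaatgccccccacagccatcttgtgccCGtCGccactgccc
Sema3e: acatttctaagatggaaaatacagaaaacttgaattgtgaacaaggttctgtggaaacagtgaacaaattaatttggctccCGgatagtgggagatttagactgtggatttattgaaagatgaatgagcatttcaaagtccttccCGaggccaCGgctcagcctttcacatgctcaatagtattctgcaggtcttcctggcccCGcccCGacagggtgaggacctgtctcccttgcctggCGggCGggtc
Plxnd1: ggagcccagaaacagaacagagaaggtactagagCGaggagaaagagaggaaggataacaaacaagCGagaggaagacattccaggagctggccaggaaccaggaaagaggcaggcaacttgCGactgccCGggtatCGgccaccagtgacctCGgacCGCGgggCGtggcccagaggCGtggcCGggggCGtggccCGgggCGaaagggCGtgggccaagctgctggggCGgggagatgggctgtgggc
The Sema4f, Plxnb3 and Sema3e windows held 4, 3 and 7 CpG dinucleotides, and the Plxnd1 window held 16. The median was 6 over the 32851 windows of this length in the table and 13 over the 37 windows of the 26 members that matched it. The most abundant transcript of Sema4f, Sema3e and Plxnd1 started at the base that follows the window, and that of Plxnb3 started 4 bases inside it (offset of -4). Neither the NF-κB consensus motif, searched by that name on both strands, nor the AP-1 motif TGANTCA, also searched on both strands, matched in these 4 windows. The NF-κB consensus was in 7.25% of all windows and the AP-1 motif in 6.75%, so the absence of these letters says nothing about either factor.

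The first question of the study was what TNF-α changed. In this comparison Sema4f and Plxnb3 fell most, Sema3e fell less, and Plxnd1 rose most. Smaller changes past the threshold were higher levels of Sema3b, Sema3c and Nrp2 and a lower level of Nrp1. At an adjusted p under 0.05 in the limma fit of all genes, 4 of the 30 members tested were higher with TNF-α, where 2.94% of all 25417 genes tested were, and 4 were lower, where 1.93% of all genes were. Among genes whose mean reached 1 FPKM, 8 of 24 members were called in either direction, where 8.37% of such genes were. As the family was selected with this comparison known, nothing is read from these counts. The median log2 fold change was -0.20 over the 30 members and 0.00 over all genes tested. Fewer cells of a type and less RNA per cell cannot be told apart in such bulk RNA.

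Sema4f, a transmembrane semaphorin of class 4 known from contacts between axons and Schwann cells, lies on chromosome 6 from 82911885 to 82939769. Its 3 Con libraries stood at 19.6, 20.2 and 19.96 FPKM, its TNF-α libraries at 5.83, 5.78 and 5.72 FPKM and its TNF-α+WBT libraries at 7.18, 7.20 and 6.86 FPKM. The 3 groups did not overlap, with Con far above the others. The log2 fold change of TNF-α against Con was -1.77 (SE 0.05), a level 3.41-fold lower on the log2(FPKM + 0.1) scale. Between 415 and 2028 estimated fragments lay behind each value.

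Plxnb3 encodes plexin-B3, a receptor of Sema5a, and lies on chromosome X from 73757090 to 73772514. It stood at 12.6, 12.8 and 12.2 FPKM in Con, at 3.78, 3.69 and 3.53 FPKM with TNF-α and at 4.21, 4.54 and 4.58 FPKM with TNF-α+WBT. The groups were again apart in the same order as for Sema4f. The log2 fold change of TNF-α against Con was -1.75 (SE 0.06), or 3.36-fold lower. In the limma fit, Sema4f and Plxnb3 were also the 2 of 30 members past the thresholds of the study. These were a fold change over 2 at an unadjusted p under 0.05, which 2.42% of all genes passed. Sema3g, with a ratio of means of 0.299, missed the fold on the log2(FPKM + 0.1) scale. The paper lists Plxnb3 and Sema3g among the hub nodes of its network. It built that network from the genes it found differentially expressed in its own comparisons, whereas Sema3g was not called here.

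The level of Sema3e, the secreted ligand of plexin-D1 known from the patterning of vessels, fell as that of its receptor rose. Sema3e lies on chromosome 5 from 14025276 to 14256689 and stood at 19.8, 18.3 and 19.9 FPKM in Con, 10.1, 9.92 and 10.5 FPKM with TNF-α and 11.3, 12.4 and 11.9 FPKM with TNF-α+WBT. Its log2 fold change with TNF-α was -0.92 (SE 0.05). Plxnd1, on chromosome 6 from 115954811 to 115995005, stood at 14.3, 15.8 and 15.9 FPKM in Con, 30.4, 29.8 and 29.3 FPKM with TNF-α and 28.0, 30.0 and 29.0 FPKM with TNF-α+WBT. Every Con library of Plxnd1 was below every other library, and the 2 treated groups overlapped. Its log2 fold change with TNF-α was 0.96 (SE 0.05), or 1.94-fold higher. The ratio of Sema3e to Plxnd1 FPKM was 1.27 ± 0.110 in Con, 0.340 ± 0.0154 under TNF-α and 0.409 ± 0.00555 under TNF-α+WBT.

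**Figure D2:**
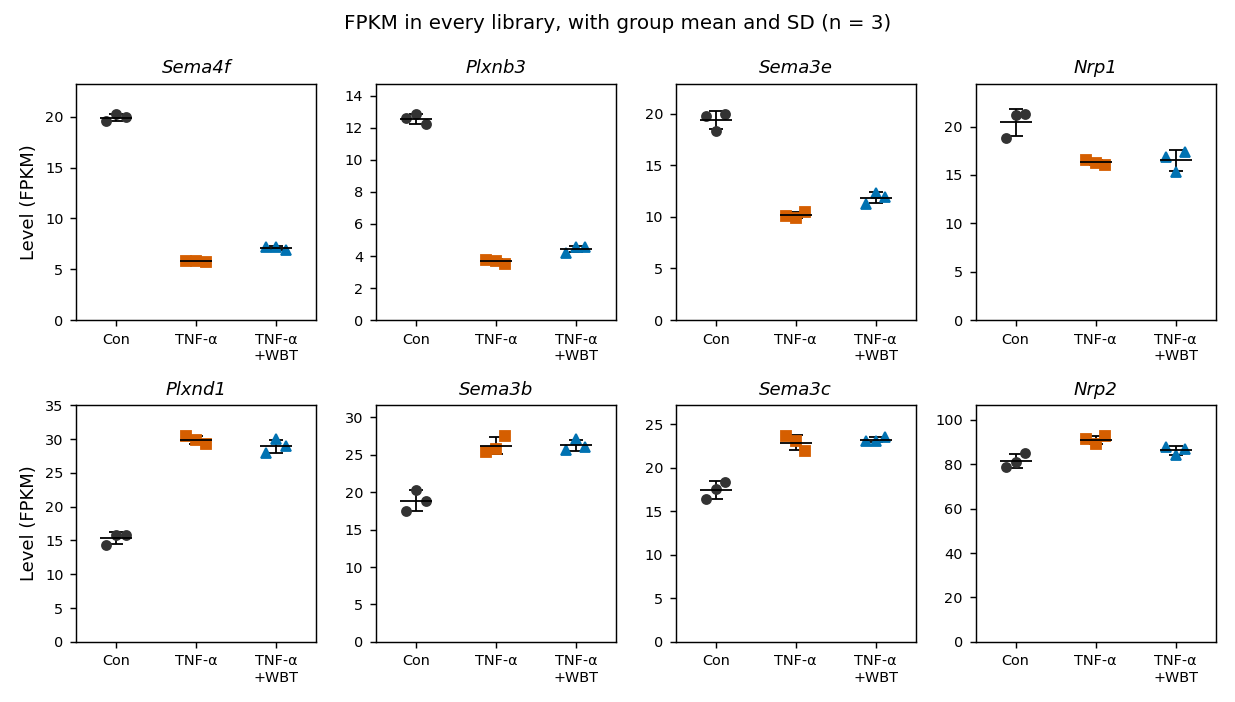
FPKM of the 8 genes past the adjusted threshold in TNF-α against Con (vertical linear axes from 0), with 1 point per library and bars for the group mean and SD of 3 libraries. Sema4f, Plxnb3 and Sema3e stand at 19.9, 12.6 and 19.3 FPKM in Con and at 5.77, 3.67 and 10.2 FPKM with TNF-α, and Plxnd1 goes from 15.3 to 29.9 FPKM.

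Among the other secreted semaphorins, Sema3b and Sema3c rose. Sema3b, which signals through neuropilins, stood at 17.5, 20.3 and 18.8 FPKM in Con, 25.4, 25.7 and 27.5 FPKM with TNF-α and 25.6, 27.1 and 26.1 FPKM with TNF-α+WBT. Sema3c, which uses both neuropilins, stood at 16.4, 17.6 and 18.4 FPKM in Con, 23.6, 23.1 and 21.9 FPKM with TNF-α and 23.1, 23.0 and 23.5 FPKM with TNF-α+WBT. In both genes Con was below the treated groups, which overlapped each other. Their log2 fold changes with TNF-α were 0.47 (SE 0.06) and 0.39 (SE 0.05). Sema3f, the ligand of neuropilin-2, was at 44.9 ± 2.34 FPKM in Con and 48.0 ± 4.21 FPKM with TNF-α, and Sema3a, the ligand of neuropilin-1, was at 2.54 ± 0.207 and 1.88 ± 0.243 FPKM. Neither was past the threshold.

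Position along the chromosome did not go with one direction. Sema3d, Sema3a, Sema3e and Sema3c follow each other on chromosome 5 between 12383385 and 17730268, and of these Sema3e fell, Sema3c rose, and Sema3a and Sema3d were not called. Sema3b and Sema3f lie close together on chromosome 9, from 107597674 to 107609229 and from 107681500 to 107710475, and of these Sema3b rose and Sema3f was not called. The secreted semaphorins as a class summed to 104 ± 3.93 FPKM in Con, 109.8 ± 3.65 FPKM with TNF-α and 109.4 ± 0.311 FPKM with TNF-α+WBT.

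The neuropilins moved in opposite directions by small amounts. Nrp1 stood at 18.8, 21.2 and 21.3 FPKM in Con, 16.6, 16.2 and 16.1 FPKM with TNF-α and 16.9, 15.3 and 17.4 FPKM with TNF-α+WBT. Nrp2 stood at 78.6, 80.8 and 85.0 FPKM in Con, 91.3, 89.2 and 92.6 FPKM with TNF-α and 88.0, 84.2 and 87.0 FPKM with TNF-α+WBT. For both genes the Con and TNF-α libraries did not overlap. The log2 fold changes with TNF-α were -0.32 (SE 0.07) for Nrp1 and 0.16 (SE 0.04) for Nrp2, and both calls were lost under other settings of the fit. The ratio of Nrp1 to Nrp2 FPKM was 0.251 ± 0.0121 in Con, 0.179 ± 0.00476 under TNF-α and 0.191 ± 0.00913 under TNF-α+WBT.

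The remaining membrane-bound semaphorins were not called in this comparison. Sema4c, a ligand of plexin-B2, varied widely within groups, from 42.1 to 64.6 FPKM in Con, 31.3 to 47.9 FPKM with TNF-α and 27.4 to 48.3 FPKM with TNF-α+WBT, so that a log2 difference of -0.40 had an SE of 0.26. Of its exonic bases 7.27% lie within exons of D430040D24Rik on the other strand, and the sources used here do not state that counting was stranded. Sema4b was at 15.4 ± 0.972 FPKM in Con and 13.7 ± 0.822 FPKM with TNF-α, Sema4g at 5.97 ± 0.765 and 4.47 ± 0.653 FPKM, and Sema4d, the ligand of plexin-B1, at 2.81 ± 0.173 and 2.48 ± 0.273 FPKM. Sema5a, the ligand of plexin-B3, was at 2.66 ± 0.00739 and 2.23 ± 0.193 FPKM. Sema6a, Sema6b and Sema6c, which act through A-type plexins, were at 2.70 ± 0.613, 3.70 ± 0.200 and 2.86 ± 0.657 FPKM in Con and at 2.26 ± 0.137, 4.07 ± 0.0623 and 2.54 ± 0.182 FPKM with TNF-α. Sema7a, which also binds integrins, was at 3.97 ± 0.690 and 3.11 ± 0.213 FPKM. Class 4 as a whole, with the called Sema4f in it, summed to 99.6 ± 12.2 FPKM in Con and 68.6 ± 9.96 FPKM with TNF-α. The range was 86.5 to 111 FPKM against 57.1 to 74.8 FPKM. Within this sum Sema4f went from a mean of 19.9 to 5.77 FPKM and the variable Sema4c from 55.3 to 42.0 FPKM.

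The A-type plexins, partners of the neuropilins, were also not called. Plxna1 was at 21.9 ± 1.24 FPKM in Con and 24.3 ± 0.702 FPKM with TNF-α, with 10.7% of its exonic bases shared with the opposite-strand gene Gm26811. Plxna2 was at 8.81 ± 0.817 and 6.90 ± 0.440 FPKM and Plxna3 at 8.73 ± 1.94 and 6.55 ± 0.754 FPKM. Plxnb1, the receptor of Sema4d, was at 8.67 ± 0.180 and 10.3 ± 0.336 FPKM. Over all members without a call at 1 FPKM or more, the log2 fold changes of TNF-α against Con lay between -0.42 and 0.25, with 11 of 16 below 0. Counted by libraries alone, 8 members had every TNF-α library above every Con library, where 11.1% of all genes had, and 10 members had every TNF-α library below, where 10.2% of all genes had. These counts too describe the comparison that chose the family.

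**Figure D3:**
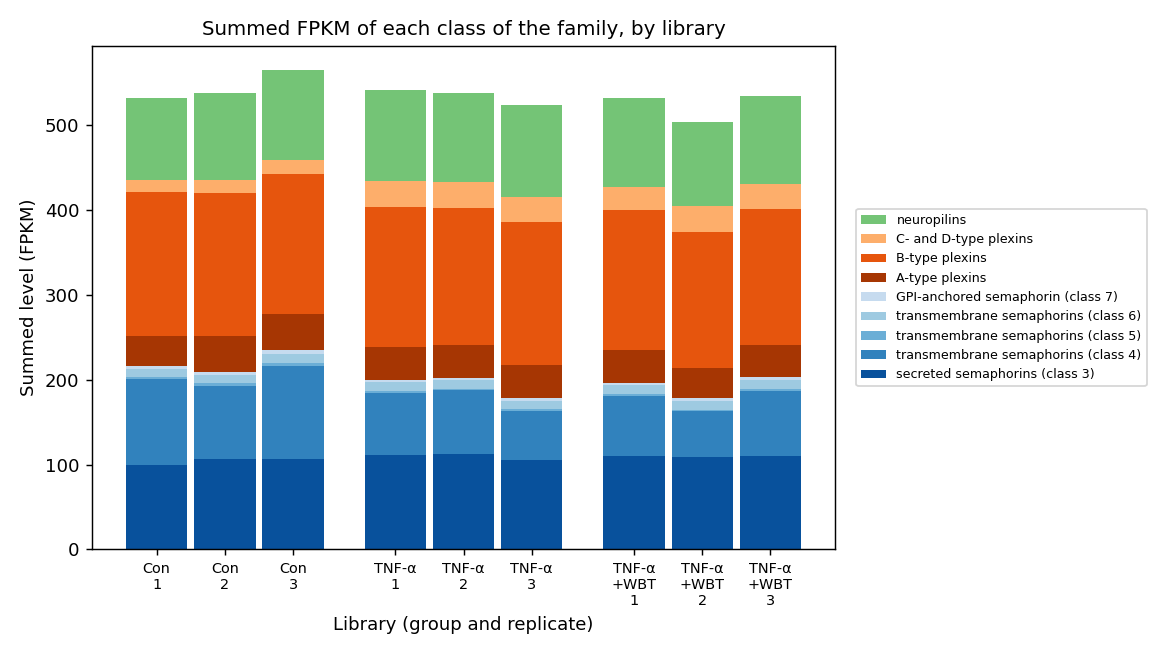
Summed FPKM of each class of the family (vertical axis, stacked bars) in each of the 9 libraries. The B-type plexins, mostly Plxnb2, make the largest block in each library. The block of C- and D-type plexins goes from 15.4 FPKM in Con to 30.0 FPKM with TNF-α. The class 4 block, which holds the called Sema4f and the variable Sema4c, goes from 99.6 to 68.6 FPKM.

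At the level of transcripts, 163 transcripts of members were tested among 80149. With TNF-α, Plxnd1-201 was higher, where 0.392% of all transcripts were called higher, and Sema4f-201, Plxnb3-201 and Sema3e-201 were lower, where 0.243% were called lower. Each is the main coding transcript of its gene. The count of 4 called transcripts ran from 2 to 6 under other settings of the fit and from 3 to 5 with a library left out. Sema4f-201, with 14 exons and 4086 bases, held 94.4% of the Sema4f level in Con and 86.0% with TNF-α. Plxnb3-201 held 88.5% and 86.8%, Sema3e-201 held 91.0% and 92.7%, and Plxnd1-201 held 93.6% and 96.8%. The log2 fold changes of these 4 transcripts were -1.90, -1.78, -0.90 and 1.01, close in size to those of their genes. The most abundant member differed from this picture, since Plxnb2-205, a transcript of 834 bases without a coding annotation, was assigned 29.9% of the Plxnb2 level in Con, and the coding Plxnb2-202 was assigned 60.6%. Other members also had much of their level outside coding transcripts. Over all libraries, coding transcripts held 40.5% of the Sema4g level, 46.4% for Sema6c and 51.1% for Plxna3. The share was 57.0% for Sema3f and for Sema5a and 58.0% for Sema4b. Shares between transcripts rest on how the authors' estimates divided the fragments.

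The second question of the study was what WBT changed in the presence of TNF-α. None of the 30 members passed an adjusted p under 0.05 in limma, where 1 gene, or 0.00393% of all genes tested, did. At an unadjusted p under 0.05, 3 members were higher with WBT, where 2.88% of all genes were, and 0 were lower, where 3.43% were. None passed the thresholds of the study, which 1.12% of all genes passed. These 3 members were Sema4f, Plxnb3 and Sema3e, the same 3 that stood lowest against Con with TNF-α. The same TNF-α libraries entered both comparisons, so the values are set side by side and no relation between them is read.

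Sema4f was 7.08 ± 0.191 FPKM with TNF-α+WBT and 5.77 ± 0.0555 FPKM with TNF-α, a log2 difference of 0.29 (SE 0.05, unadjusted p = 0.000197 and adjusted p = 0.200 in limma). Plxnb3 was 4.44 ± 0.203 FPKM with TNF-α+WBT and 3.67 ± 0.128 FPKM with TNF-α, a log2 difference of 0.27 (SE 0.06, adjusted p = 0.473). Sema3e was 11.9 ± 0.538 and 10.2 ± 0.300 FPKM, a log2 difference of 0.22 (SE 0.05, adjusted p = 0.518). In each of the 3 genes every TNF-α+WBT library was above every TNF-α library, which held for 5.39% of all genes. Nrp2 and Plxna1 had every TNF-α+WBT library below every TNF-α library, which held for 5.61% of all genes, with log2 differences of -0.08 (SE 0.04) and -0.06 (SE 0.05). Groups that do not overlap fix the exact two-sided permutation p at 0.1 with 3 against 3 libraries, the smallest it allows, so that test adds nothing here.

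In FPKM, these differences were small beside those between TNF-α and Con. Sema4f was 14.1 FPKM below Con with TNF-α (a difference of -14.1) and 1.30 FPKM above TNF-α with TNF-α+WBT. For Plxnb3 the values were -8.89 and 0.779 FPKM, and for Sema3e they were -9.18 and 1.70 FPKM. Plxnd1, the member that rose most, was at 29.0 ± 0.965 FPKM with TNF-α+WBT, a log2 difference from TNF-α of -0.04 (SE 0.05, adjusted p = 0.928). Over the 24 members at 1 FPKM or more, the log2 differences of TNF-α+WBT against TNF-α lay between -0.20 and 0.29 with SEs of 0.03 to 0.26, so differences of this size were not detectable in the most variable members. The median absolute log2 difference was 0.07 over these members and 0.07 over all genes at 1 FPKM or more. None of the 163 transcripts was called, where 0.0424% of all transcripts were, and Sema4f-201 had a log2 difference of 0.40 (SE 0.07, adjusted p = 0.322).

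**Figure D4:**
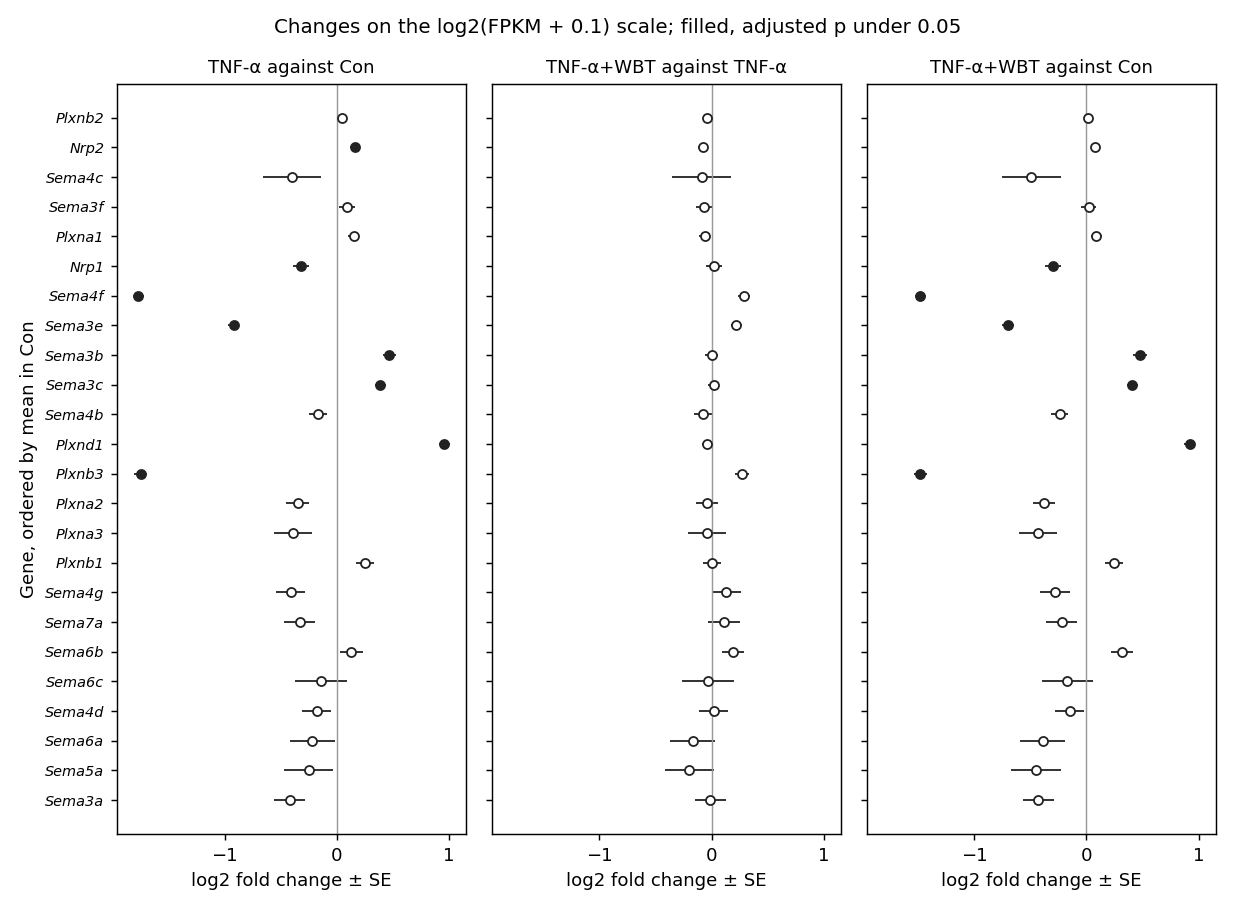
Log2 fold change with its standard error on the log2(FPKM + 0.1) scale (horizontal axes) for the 24 genes at 1 FPKM or more, in 3 comparisons, with filled points for an adjusted p under 0.05. The first panel has 8 filled points, the second none and the third 7, and in the second all points lie between -0.20 and 0.29.

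Against Con, which both treated groups share as control, TNF-α+WBT cultures had 3 members higher at an adjusted p under 0.05 (Plxnd1, Sema3b and Sema3c), where 2.31% of all genes were, and 4 lower (Sema4f, Plxnb3, Sema3e and Nrp1), where 1.40% were. The call of Nrp1 was lost in 12 of 19 alternative settings. Of the 24 members at 1 FPKM or more 7 were called, where 6.46% of such genes were. The same Con libraries entered the comparison that chose the family, so nothing is read from these counts. The log2 fold changes were -1.48 (SE 0.05) for Sema4f, -1.48 (SE 0.06) for Plxnb3, -0.70 (SE 0.05) for Sema3e, -0.30 (SE 0.07) for Nrp1, 0.92 (SE 0.05) for Plxnd1, 0.48 (SE 0.06) for Sema3b and 0.41 (SE 0.05) for Sema3c. Nrp2, called with TNF-α alone, had a log2 fold change of 0.08 (SE 0.04), and its difference between TNF-α+WBT and TNF-α had an adjusted p of 0.816. Among transcripts Plxnd1-201 was higher, where 0.268% of all transcripts were, and Sema4f-201 and Plxnb3-201 were lower, where 0.187% were.

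The other genes of the pathway came from lists written with earlier results of these data known. Their p-values are therefore no independent evidence. Of 67 listed genes 61 were tested, and with TNF-α 5 were called higher and 4 lower, where 2.94% and 1.93% of all genes tested were. The total of 9 ran from 6 to 13 under other settings of the fit and from 6 to 10 with a library left out. Among the GTPases and their regulators 3 of 17 were called higher and 0 lower. Rnd1, a GTPase that binds the intracellular part of plexins, rose from 2.74 ± 0.236 to 10.2 ± 1.27 FPKM (log2 fold change 1.86, SE 0.10, adjusted p = 1.89e-05). Rras, the Ras-like GTPase that plexins switch off, rose from 21.7 ± 3.59 to 37.2 ± 2.93 FPKM (log2 fold change 0.79, SE 0.11, adjusted p = 0.00422), and Farp1 had a log2 fold change of 0.22 (SE 0.04, adjusted p = 0.0142).

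Among the proteases that cut semaphorins or their receptors, 2 of 6 tested were called higher and 1 lower. Of all genes tested, 2.94% were called higher and 1.93% lower. Adamts1, a secreted metalloproteinase that can cleave Sema3c, rose from 24.6 ± 1.18 to 60.9 ± 1.87 FPKM (log2 fold change 1.30, SE 0.06, adjusted p = 7.97e-06). Adam17, the sheddase that releases TNF-α and many receptors, had a log2 fold change of 0.47 (SE 0.04, adjusted p = 0.000464), and the related Adam10 one of -0.19 (SE 0.04, adjusted p = 0.0404). Among 14 tested receptor partners 0 were called higher and 2 lower. The called genes were Nrcam, an adhesion molecule that joins neuropilin-2, at 1.33 ± 0.252 FPKM in Con and 0.392 ± 0.0794 FPKM with TNF-α (adjusted p = 0.0111), and Met, the receptor of hepatocyte growth factor and a partner of B-type plexins, at 27.4 ± 2.62 and 20.5 ± 1.36 FPKM (adjusted p = 0.0191). Flt1, a VEGF receptor that was named after its values were seen, missed the threshold (log2 fold change 0.49, SE 0.12, adjusted p = 0.0644). Every TNF-α library of Flt1 was above every Con library, which held for 11.1% of all genes.

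Of 18 kinases, CRMPs and MICALs, which carry plexin signals to the cytoskeleton, 0 were called higher and 1 lower. The shares of all genes tested were 2.94% and 1.93%. The lower gene was Dpysl4, at 1.11 ± 0.236 FPKM in Con and 0.283 ± 0.0846 FPKM with TNF-α (adjusted p = 0.00714). Other CRMP genes, also named after their values were seen, did not overlap between the groups but missed the threshold. Their log2 fold changes were -0.26 (SE 0.07) for Crmp1, 0.22 (SE 0.07) for Dpysl3 and 0.21 (SE 0.06) for Dpysl2. Of all genes tested, 11.1% had every TNF-α library above every Con library and 10.2% had every one below. Genes of the other lists did so too without a call, among them Furin (lower), Rnd3 and Vegfd (both higher), with adjusted p = 0.0555, 0.0677 and 0.0798 in limma. None of the 6 other neuropilin ligands was called, Vegfa among them at 57.4 ± 4.32 FPKM in Con and 66.9 ± 2.88 FPKM with TNF-α (adjusted p = 0.151). With WBT against TNF-α none of the 61 genes was called. Against Con, TNF-α+WBT had 7 of them higher, with Mras (log2 fold change 0.36, SE 0.08, adjusted p = 0.0374) and Dpysl3 (0.34, SE 0.07, adjusted p = 0.0256) beside the 5 named above, and 3 lower (Nrcam, Met and Dpysl4), where 2.31% and 1.40% of all genes tested were. This total of 10 was not stable across settings. It was 4 without TNF-α+WBT replicate 3, 5 without TNF-α+WBT replicate 1 or 2 or Con replicate 3, and 6 without Con replicate 1. With every Con and TNF-α+WBT library kept, it was 6 without an intensity trend and 5 with only those 2 groups in the fit.

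Markers of other cells moved in TNF-α against Con, where 2.94% of all genes tested were called higher and 1.93% lower. Of the 12 Schwann cell markers none was higher and 5 were lower with TNF-α (Ngfr, Erbb3, S100b, Cdh19 and Foxd3), and the summed level of that list was 926 to 983 FPKM in Con, 751 to 813 FPKM with TNF-α and 818 to 847 FPKM with TNF-α+WBT. Of 8 neuron markers 3 were above 1 FPKM in all libraries, and 2 of the 4 tested were called, both lower, Tubb3 at 55.3 ± 2.30 FPKM in Con, 16.1 ± 0.563 FPKM with TNF-α and 20.8 ± 1.52 FPKM with TNF-α+WBT, and Nefl at 4.19 ± 0.120, 1.81 ± 0.199 and 1.93 ± 0.108 FPKM. The third, Map2, was not called and had its TNF-α libraries above its Con libraries, at 8.67 ± 1.56 FPKM in Con, 12.4 ± 2.20 FPKM with TNF-α and 13.1 ± 2.24 FPKM with TNF-α+WBT. Of 13 tested fibroblast markers Col1a1 and Col1a2 were higher and Pdgfrb and Postn lower, with summed levels of 5339 to 5695 FPKM in Con and 5628 to 5918 FPKM with TNF-α. None of the 8 endothelial markers was above 1 FPKM in all libraries. The part of these cell markers in the values of Sema4f, Plxnb3, Sema3e and Plxnd1 was not tested.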

How the data were processed

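Paired-end libraries of poly(A) RNA were made with a TruSeq kit. The authors deposited FPKM values for 56289 genes and 144726 transcripts, and the study names HISAT2, StringTie and Ballgown, with versions and build not given in the sources used here. Genes were mapped by Ensembl ID to GENCODE M21 (GRCm38), which held 98.1% of them. The members and gene lists were chosen with earlier results of these data known.

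All 9 libraries entered 1 limma 3.58.1 (R 4.3.3) model with a mean per group on log2(FPKM + 0.1), with an intensity trend, over features above 0 FPKM in at least 3 libraries, and Benjamini-Hochberg adjustment ran over all features tested. This scale understates changes of low genes. For 54845 of 55230 genes the sum over transcripts equalled the gene value to within 0.0001 FPKM. Members with a group mean of at least 1 FPKM are described singly, with every library for those at an adjusted p under 0.05 in any comparison, and up to 4 called genes are named per pathway list. Single members whose TNF-α+WBT and TNF-α libraries did not overlap also had an exact two-sided permutation test.

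FPKM keeps no total, so depth was estimated from the step of 1 fragment in genes with 1 transcript of at least 1000 bases. Between 51.7% and 55.6% of low values lay within 0.1 of a whole fragment, where 20% would by tolerance alone, so fragments are approximate and no count test was run. Promoters came from RefSeq (GRCm38.p6). Tables were made with Python 3.11.15 and pandas 2.3.3. The model was also run on simulated data in which every gene had the same built-in spread. That run does not stand for members as variable as Sema4c. Alternatives covered the pseudocount, filter, trend, samples, scaling, transcript sums, replicate block and each library left out. The exact test rests on 3 libraries a group. The SEs rest on the spread within groups over all 9 libraries, moderated by that of genes at like levels.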

Additional observations from a re-analysis of the deposited data

How the results depend on the processing

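The direction and the call of Sema4f, Plxnb3, Sema3e, Plxnd1, Sema3b and Sema3c in TNF-α against Con were kept under every alternative and with each library left out, and 0 members were called in TNF-α+WBT against TNF-α throughout. The count of members called was 6 to 8 in TNF-α against Con and 6 to 8 in TNF-α+WBT against Con, with and without single libraries. In TNF-α against Con, Nrp1 was no longer called without an intensity trend, with the replicate block, or without Con replicate 2 or 3 or any TNF-α replicate. Nrp2 was no longer called at a pseudocount of 0.01, without a filter, without a trend, with only the compared groups in the fit, after quantile normalization, with the replicate block, or without any single library other than Con replicate 3. Without Con replicate 1, Plxna3 was called in both comparisons with Con, at log2 fold changes of -0.58 and -0.62, and with the filter of a mean of at least 1 FPKM, Plxna2 was called in TNF-α+WBT against Con at -0.38. In TNF-α+WBT against Con, Nrp1 lost its call in 12 of 19 settings.

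With the replicate number as a block, 2 member transcripts were called in TNF-α against Con and 6 pathway genes in TNF-α+WBT against Con, and 6 members in each of these comparisons. To see whether the numbers pair libraries, the group mean of each gene at 1 FPKM or more was subtracted on the log2 scale. What remained was correlated between libraries of different groups. The correlations were -0.07 to 0.10 for libraries with the same number and -0.10 to 0.10 for the others, so the numbers were not taken to pair the libraries. Pathway genes called in TNF-α+WBT against Con numbered 6 without a trend, 5 with only the compared groups in the fit, and 4 to 11 with a library left out (6 without Con replicate 1, 5 without Con replicate 3, and 5, 5 and 4 without TNF-α+WBT replicates 1, 2 and 3). The cause was not tested.

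Signs turned only where no call was made. In TNF-α+WBT against TNF-α, median centring gave log2 fold changes of -0.00062 for Sema3b and -0.0022 for Plxnb1, quantile normalization gave -0.01 for Plxnb1, and in TNF-α+WBT against Con it gave -0.03 for Plxnb2. With a library left out, the TNF-α+WBT against TNF-α value ran from -0.10 to 0.08 for Sema3a, from -0.02 to 0.04 for Sema3b, from -0.01 to 0.05 for Sema3c, from -0.29 to 0.16 for Sema4c, from -0.08 to 0.10 for Sema4d, from -0.35 to 0.09 for Sema5a, from -0.26 to 0.0013 for Sema6a, from -0.26 to 0.12 for Sema6c, from -0.11 to 0.02 for Plxna2, from -0.11 to 0.05 for Plxna3, from -0.08 to 0.09 for Plxnb1 and from -0.02 to 0.07 for Nrp1. In TNF-α against Con Sema6c ran from -0.29 to 0.02, and in TNF-α+WBT against Con Sema3f ran from -0.02 to 0.05 and Plxnb2 ran from -0.0017 to 0.02. Depth leaves the low genes uncertain, and 3 libraries a group limit what a missing call can show.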
